A study of Mus musculus with 6 samples.

Results

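Collagen and laminin chains were followed in RNA-seq of mouse ovaries, in animals carrying a Dennd1a transgene and in wild-type animals. The set holds every gene of the deposited table whose symbol is that of a collagen chain (Col, a number, a, a number) or of a laminin alpha, beta or gamma chain (Lam, a, b or c, a digit), with at least 60 reads summed over the 6 libraries. Of 18280 genes in the table, 54 had such a symbol and 49 reached the minimum, 39 collagen and 10 laminin genes. Just inside it were Col9a3 with 65 reads, Col28a1 with 80 and Col11a2 with 115. Just outside were Col17a1 with 39 reads, Lamb3 with 38 and Col19a1 with 35, followed by Col10a1 with 23 and Col9a1 with 2. The genotypes are labelled Dennd1aTG (TG below, 3 animals) and wild type (WT, 3 animals), and the ovaries of both were collected 44 h after an injection of PMSG, a gonadotropin preparation that acts on FSH receptors and starts follicle growth. The comparison of TG with WT is the only one in the design, and both groups were hormone-treated. The promoter and copy number of the transgene, the strain and the animals' age are not given in the sources used here.

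Collagens are made of 3 chains wound into a triple helix. Fibrillar collagens such as types I, III and V give connective tissue its tensile strength, while type IV collagen forms a sheet-like network in basement membranes. Laminins join an alpha, a beta and a gamma chain into a cross-shaped molecule that lies beside type IV collagen in the same membranes. In the ovary a basement membrane separates the granulosa cells of each follicle from the theca, vessels and stroma outside it, and fibrillar and type VI collagens fill the stroma and the ovarian capsule.

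Library totals ran from 17075484 to 18516171 estimated counts, and the collagen and laminin genes held between 0.727% (WT replicate 2) and 0.865% (TG replicate 1) of them. Dennd1a ranged from 570 to 588 CPM (counts scaled to a common library size) in TG and from 39.5 to 49.3 CPM in WT, as the labels have it. Summed levels were 5111 to 6380 CPM for 8 granulosa markers, 25370 to 28790 CPM for 6 theca markers and 112 to 222 CPM for 8 oocyte markers, so all 6 libraries carried the RNA of ovarian cells. Library values below are listed in the order of replicates 1, 2 and 3. Libraries stood apart in the markers of neighbouring tissues. In TG replicate 2, 9 adipocyte markers summed to 279 CPM against 18.6 to 52.7 CPM elsewhere, and in WT replicate 3, 8 oviduct epithelium markers summed to 57.6 CPM against 12.4 to 19.9 CPM elsewhere. The oviduct sum rested on 1 gene, Ovgp1, an oviduct secretory glycoprotein, at 40.7 CPM in WT replicate 3 against 0.596 to 6.08 CPM in the other libraries.

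No collagen or laminin gene passed the test of TG against WT ovaries. All 49 genes had enough reads to be tested, and edgeR called 0 of 49 at an adjusted p under 0.05, against 1.05% of all 14124 genes tested. The count was 0 in DESeq2 and in limma-voom as well. At an unadjusted p under 0.05 edgeR gave 0 of 49, where 4.08% of all tested genes lay, and the adjusted p of every member was 0.9997. The log2 fold changes of TG over WT ran from -0.54 for Col14a1 to 0.43 for Col7a1, with 25 above 0 and 24 below (50.7% of all tested genes were above 0). Their median was 0.002, and that of all tested genes was also 0.002. Once the 2 libraries that stood apart (TG replicate 2, WT replicate 3) were dropped, 0 of 49 were called, the median was 0.129 and an unadjusted p under 0.05 was reached by 5 of 49 genes (Col16a1, Col9a2, Col14a1, Col6a3 and Col15a1), against 6.57% of all genes tested in that analysis. In bulk tissue a change in the number of cells of a type cannot be told apart from a change in the RNA each cell holds.

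How far the data bound a difference depended on the level. For 31 of 49 genes (63.3%) the 95% interval lay within 1.5-fold in either direction, compared with 74.5% of all tested genes. Among the 31 members with a mean of at least 10 CPM it did so for 27 (87.1%), compared with 93.3% of all genes at that level. All 23 members with a mean of at least 5 FPKM (a level scaled for transcript length and library size, which can be compared between genes) were bounded within 1.5-fold, and 11 of them within 1.25-fold. Of the 26 members under 5 FPKM, 8 were bounded within 1.5-fold and 20 within 2-fold.

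**Figure D1:**
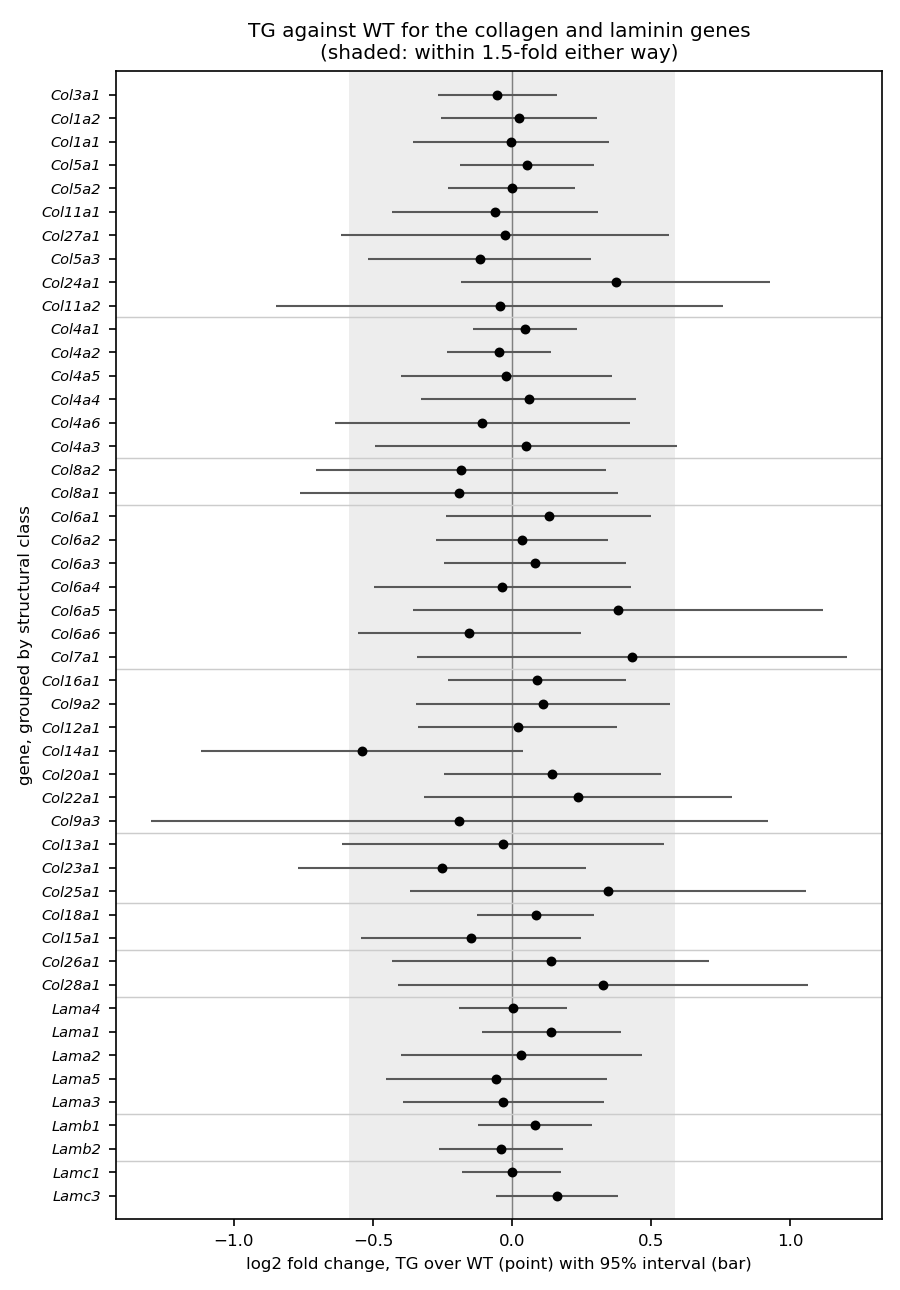
Log2 fold change of TG over WT (x axis) for 48 of the 49 collagen and laminin genes (y axis, grouped by structural class), with points for the edgeR estimates and bars for their 95% intervals. Every bar crosses 0, and the bars of all 23 genes with a mean of at least 5 FPKM lie inside the shaded range of 1.5-fold.

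Levels spanned more than 3 orders of magnitude. Averaged over the 6 libraries, 7 genes reached at least 100 FPKM, 12 lay between 10 and 100 FPKM, 20 between 1 and 10 FPKM, and 10 below 1 FPKM. The 7 highest were, in descending order of mean FPKM, Col6a1, Col4a1, Col3a1, Col1a2, Col1a1, Col4a2 and Col6a2, chains of types I, III, IV and VI. They made up 73.6% to 75.6% of the summed FPKM of all 49 genes in each library. Fibrillar collagens as a class held 33.1% to 37.8% of that sum, type IV chains 19.6% to 24.3%, and type VI with type VII chains 20.2% to 26.5%. The TG and WT ranges overlapped in each of these 3 shares. The order among the first 4 genes is not fixed, since the ranges of their libraries overlapped.

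**Figure D2:**
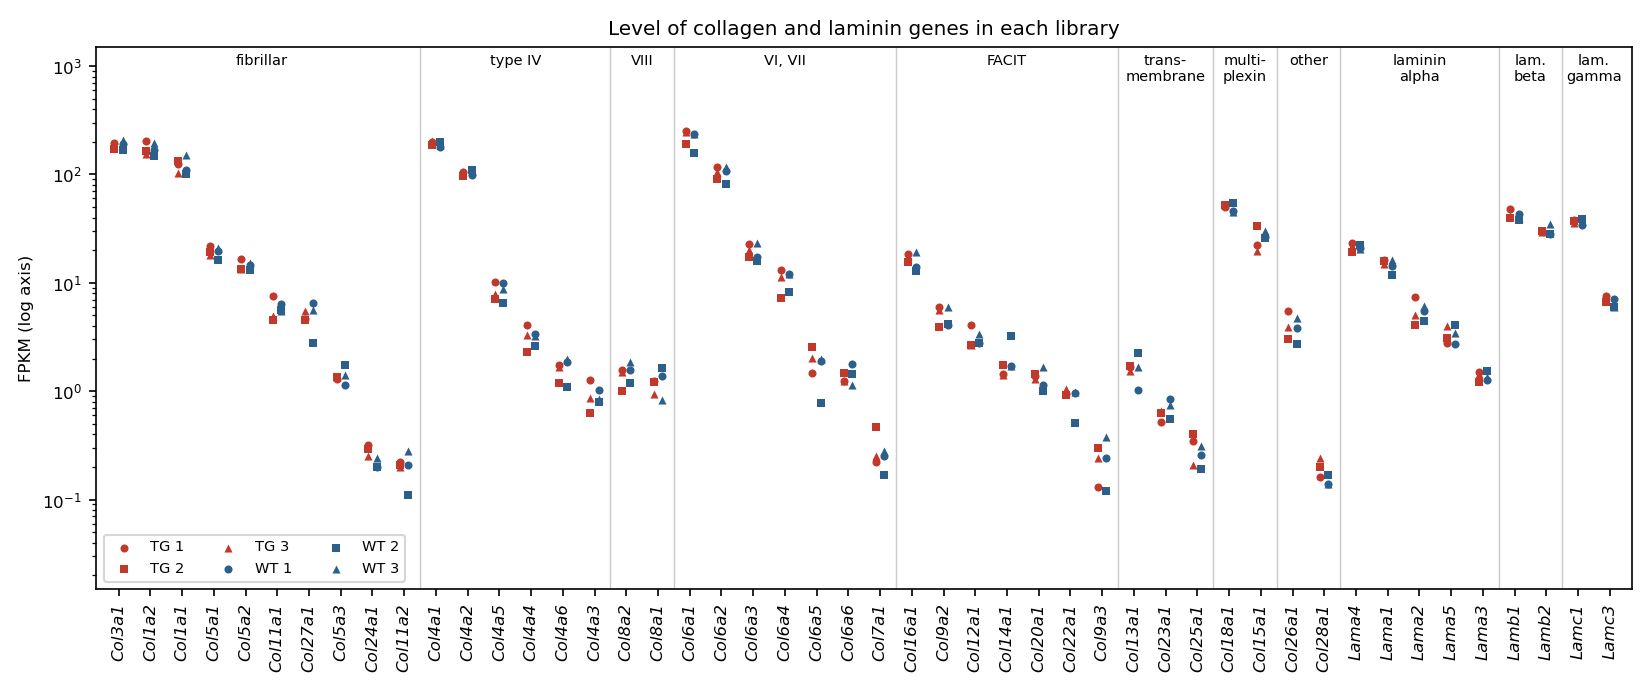
Deposited FPKM (y axis, log scale) of 48 of the 49 collagen and laminin genes (x axis, grouped by structural class) in each library, with 1 point per library, red for TG and blue for WT. Red and blue points lie on top of each other for most genes, and Col6a1 has the highest mean and Col28a1 the lowest.

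Among the fibrillar collagens, Col3a1, Col1a2 and Col1a1 were the most abundant, and none of the 10 genes passed the test (0 called, median log2 fold change -0.015). Col3a1, the single chain of type III collagen, which is plentiful in distensible tissues, measured 193, 172 and 182 FPKM in the TG libraries and 189.7, 169 and 207 FPKM in the WT libraries. It was lowest in replicate 2 of both genotypes and its groups overlapped, with a log2 fold change of -0.05 (95% CI -0.27 to 0.16). The type I chains Col1a1 and Col1a2 assemble together into the main fibril of stroma. Col1a2 measured 202, 165 and 156 FPKM in the TG libraries and 168, 149 and 194 FPKM in the WT libraries, and Col1a1 measured 125, 132 and 103 FPKM in the TG libraries and 109, 100.3 and 149.8 FPKM in the WT libraries. Highest for Col1a1 was WT replicate 3 and highest for Col1a2 was TG replicate 1, so each genotype held a high library. Their log2 fold changes were -0.01 (95% CI -0.36 to 0.35) for Col1a1 and 0.02 (95% CI -0.26 to 0.30) for Col1a2.

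Sequences upstream of the start sites of these stromal chains are shown because Col3a1 and Col1a2 had the highest mean FPKM of the fibrillar genes. They are from RefSeq (GRCm38.p6), on the gene's own strand, limited to bases in which no exon is annotated. Col3a1 (chr1:45311288-45311537, plus strand) ends 1 base before the start site. Its capitals mark TATAAA, the letters of a TATA box, with the first base 117 bases before the start site. Whether that word serves this start site was not tested. Col1a2 (chr6:4505370-4505492, plus strand) runs from 248 to 126 bases before the start site, and the capitals mark 2 copies of GGGCGG, the GC box bound by Sp-family factors.
Col3a1: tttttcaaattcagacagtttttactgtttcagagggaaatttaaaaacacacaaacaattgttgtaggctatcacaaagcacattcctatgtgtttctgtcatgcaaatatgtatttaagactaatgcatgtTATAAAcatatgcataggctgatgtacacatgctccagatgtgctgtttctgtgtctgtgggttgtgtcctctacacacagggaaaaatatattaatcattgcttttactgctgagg
Col1a2: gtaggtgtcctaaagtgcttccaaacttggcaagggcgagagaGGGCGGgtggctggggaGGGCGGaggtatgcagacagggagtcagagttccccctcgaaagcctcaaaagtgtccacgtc

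Of the 49 genes, 35 had an entry in the promoter table. In the 250 bases before the start, on either strand, GGGCGG was found in 23 of 35 (65.71%) and in 32.94% of all 27025 promoters. CCAAT was found in 12 of 35 (34.29%) and in 34.46% of all promoters, and TATAAA in 3 of 35 (8.57%) and in 12.97%. The reverse of CCAAT ends in GG and can share bases with GGGCGG, and base composition was not matched. Read level was not matched either, since the members had to reach a minimum of reads and the set of all promoters did not. These are matches of letters and not measured binding.

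The minor fibrillar chains were lower and did not pass the test either. Col5a1 and Col5a2, whose type V collagen sits inside type I fibrils and limits their width, ranged over 16.3 to 21.6 FPKM and 13.1 to 16.5 FPKM, with log2 fold changes of 0.05 (95% CI -0.19 to 0.29) and -0.002 (95% CI -0.23 to 0.23). Col11a1, a type XI chain related to type V, ranged over 4.5 to 7.48 FPKM, and Col27a1 over 2.76 to 6.5 FPKM, with its lowest value in WT replicate 2. Col5a3, Col24a1 and Col11a2 stayed under 2 FPKM in every library. Col24a1 was among the 12 members with the smallest p. It measured 0.32, 0.29 and 0.25 FPKM in the TG libraries and 0.20, 0.20 and 0.24 FPKM in the WT libraries. All 3 TG values were above the WT values in FPKM, whereas in CPM the groups overlapped, and the log2 fold change was 0.37 (95% CI -0.18 to 0.93).

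Type IV collagen was carried by Col4a1 and Col4a2, and these were among the steadiest genes of the set. The 2 chains build the form of type IV collagen found in nearly all basement membranes. Col4a1 measured 200.1, 186 and 202 FPKM in the TG libraries and 179, 199 and 189 FPKM in the WT libraries, and Col4a2 measured 105, 96.8 and 105 FPKM in the TG libraries and 98.2, 109 and 107 FPKM in the WT libraries. Neither set of values separated the genotypes, and the coefficient of variation over the 6 libraries was 4.56% for Col4a1 and 4.85% for Col4a2. Log2 fold changes were 0.05 (95% CI -0.14 to 0.23) for Col4a1 and -0.05 (95% CI -0.23 to 0.14) for Col4a2, which bounds both within 1.25-fold.

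The other 4 type IV chains, which form the networks best known from kidney glomeruli and smooth muscle, were far lower. Col4a5 measured 10.2, 7.11 and 7.96 FPKM in the TG libraries and 9.96, 6.56 and 8.84 FPKM in the WT libraries, and Col4a6, its neighbour on chromosome X, measured 1.75, 1.18 and 1.68 FPKM in the TG libraries and 1.85, 1.09 and 2.0 FPKM in the WT libraries. Both were lowest in replicate 2 of each genotype. Col4a4 ranged over 2.29 to 4.04 FPKM and Col4a3 over 0.63 to 1.27 FPKM, again with TG replicate 2 and WT replicate 2 the lowest 2 libraries in CPM. The log2 fold changes were -0.02 for Col4a5, -0.11 for Col4a6, 0.06 for Col4a4 and 0.05 for Col4a3, and for all 4 the intervals included 0. By RefSeq coordinates Col4a1 and Col4a2 share 85 bases at their starts on chromosome 8 and Col4a3 and Col4a4 share 114 bases on chromosome 1. The strand setting of the counting is not given, so whether reads within those bases were assigned to the right gene is unknown.

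Each of the 3 type IV pairs lies head to head. The start sites of Col4a5 and Col4a6 are 1343 bases apart on chromosome X (GRCm38.p6), and the bases before each are shown because these chains had their 2 lowest values in the same libraries. Col4a5 is given as chrX:141475169-141475384 on the plus strand, from 250 to 35 bases before its start, with a CCAAT word in capitals. Col4a6 is given as chrX:141474077-141474326, read along the minus strand up to the base before its start. Its capitals mark CCGCCC, which is GGGCGG on the other strand. The RefSeq gene coordinates reach further than these start sites, with Col4a5 from 141475370 and Col4a6 up to 141474095. The printed bases nearest each start therefore lie inside the annotated gene, part of the marked CCGCCC among them.
Col4a5: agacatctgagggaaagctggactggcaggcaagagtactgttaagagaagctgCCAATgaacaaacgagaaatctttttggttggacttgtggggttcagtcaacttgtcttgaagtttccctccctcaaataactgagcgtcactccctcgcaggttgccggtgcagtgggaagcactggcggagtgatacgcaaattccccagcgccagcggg
Col4a6: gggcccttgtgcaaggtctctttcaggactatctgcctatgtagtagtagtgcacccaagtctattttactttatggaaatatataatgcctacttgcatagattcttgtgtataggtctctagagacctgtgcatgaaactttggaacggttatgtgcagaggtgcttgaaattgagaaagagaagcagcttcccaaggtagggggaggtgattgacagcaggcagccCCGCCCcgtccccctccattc

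Type VI collagen forms beaded filaments around cells and between larger fibrils. RNA of its chain Col6a1 was as abundant as that of the leading type I and IV chains. Col6a2 was lower, with a mean of 102.9 FPKM beside 103.4 FPKM for Col4a2. The mean of Col6a3 was far lower, 19.5 FPKM against 220 FPKM for Col6a1. The coefficient of variation over the 6 libraries was 16.6% for Col6a1 and 13.2% for Col6a2, above that of Col4a1 and Col4a2. Col6a1 had the highest mean of all 49 genes and measured 253, 190.2 and 248 FPKM in the TG libraries and 235, 157 and 236 FPKM in the WT libraries. WT replicate 2 was the lowest library and TG replicate 2 the next, so each genotype held a low library. Col6a2 measured 117, 91.1 and 106 FPKM in the TG libraries and 107, 80.9 and 116 FPKM in the WT libraries in the same order at the low end. Log2 fold changes were 0.13 (95% CI -0.24 to 0.50) for Col6a1 and 0.04 (95% CI -0.27 to 0.34) for Col6a2. Col6a3, the long chain of the common heterotrimer, measured 22.9, 17.5 and 19.9 FPKM in the TG libraries and 17.4, 15.9 and 23.2 FPKM in the WT libraries, with a log2 fold change of 0.08 (95% CI -0.25 to 0.41) and no separation of the genotypes.

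Col6a4, Col6a5 and Col6a6, alternatives to Col6a3 that stand in a row on chromosome 9 with 27.8 and 27.9 kb between neighbours, did not vary alike. Col6a4 measured 13.03, 7.28 and 11.3 FPKM in the TG libraries and 11.99, 8.16 and 12.03 FPKM in the WT libraries, lowest in replicate 2 of each genotype. Col6a5 measured 1.46, 2.58 and 2.03 FPKM in the TG libraries and 1.89, 0.77 and 1.99 FPKM in the WT libraries, where TG replicate 2 was highest and WT replicate 2 lowest. Its log2 fold change was 0.38 (95% CI -0.36 to 1.12), and Col6a6, at 1.15 to 1.78 FPKM, had -0.15 (95% CI -0.56 to 0.25). Col6a5 and Col6a6 each had a count that was not a whole number in TG replicate 2, as when reads are divided among similar genes. Col7a1, the anchoring fibril collagen under epithelia, had the highest log2 fold change of the set, 0.43 (95% CI -0.34 to 1.20), and a wide interval. Col7a1 measured 0.22, 0.47 and 0.25 FPKM in the TG libraries and 0.25, 0.17 and 0.28 FPKM in the WT libraries, with TG replicate 2 the highest and overlapping groups.

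FACIT collagens, which decorate the surface of fibrils, were led by Col16a1 at 12.8 to 19.1 FPKM, Col9a2 at 3.88 to 6.02 FPKM and Col12a1 at 2.64 to 4.11 FPKM. Their log2 fold changes were 0.09 (95% CI -0.23 to 0.41), 0.11 (95% CI -0.35 to 0.57) and 0.02 (95% CI -0.34 to 0.38). Col14a1, which binds type I fibrils, had the lowest fold change and the smallest p of all 49 genes. It measured 1.44, 1.75 and 1.41 FPKM in the TG libraries and 1.71, 3.24 and 1.7 FPKM in the WT libraries. WT replicate 2 stood above the 5 other libraries, which lay between 1.41 and 1.75 FPKM in both genotypes. The log2 fold change was -0.54 (95% CI -1.12 to 0.04) with an unadjusted p of 0.0634 in edgeR, and over the alternative analyses it ranged from -0.82 to -0.15. Col22a1 measured 0.94, 0.93 and 1.04 FPKM in the TG libraries and 0.96, 0.51 and 0.98 FPKM in the WT libraries, with only WT replicate 2 apart, and had a log2 fold change of 0.24 (95% CI -0.32 to 0.79). Col20a1 ranged over 1.0 to 1.68 FPKM, and Col9a3, at 0.12 to 0.38 FPKM, had the largest coefficient of variation of the 49 genes, 42.8%.

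The multiplexins Col18a1 and Col15a1 are basement membrane collagens that carry heparan or chondroitin sulphate chains, and Col18a1 yields endostatin. Col18a1 measured 49.8, 52.6 and 52.7 FPKM in the TG libraries and 46.2, 54.3 and 45.02 FPKM in the WT libraries, with overlapping groups and a log2 fold change of 0.08 (95% CI -0.13 to 0.30). Col15a1 measured 22.3, 33.2 and 19.5 FPKM in the TG libraries and 26.6, 26.1 and 29.8 FPKM in the WT libraries. TG replicate 2 was the highest library of the 6 for Col15a1 and the other 2 TG libraries were the lowest. Its log2 fold change was -0.15 (95% CI -0.54 to 0.25) with all libraries and -0.41 (adjusted p = 0.223 in edgeR) without TG replicate 2, the library with the high adipocyte markers. It was 0.001 without TG replicate 3. The part of those markers in the level of Col15a1 was not tested.

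The short-chain network collagens Col8a1 and Col8a2, found in vessel walls and in Descemet's membrane, ranged over 0.83 to 1.65 FPKM and 1.0 to 1.87 FPKM, with log2 fold changes of -0.19 (95% CI -0.76 to 0.38) and -0.18 (95% CI -0.71 to 0.34). The transmembrane collagens Col13a1, Col23a1 and Col25a1 ranged over 1.03 to 2.23 FPKM, 0.52 to 0.85 FPKM and 0.19 to 0.40 FPKM. Col23a1 and Col25a1 were among the 12 smallest p, at -0.25 (95% CI -0.77 to 0.26) and 0.34 (95% CI -0.37 to 1.06). Col26a1, at 2.7 to 5.47 FPKM, and Col28a1, at 0.14 to 0.24 FPKM, had log2 fold changes of 0.14 (95% CI -0.43 to 0.71) and 0.33 (95% CI -0.41 to 1.06). The intervals of the low genes reach furthest. In the whole set they pass 2-fold for Col9a3, Col7a1, Col6a5, Col14a1, Col25a1 and Col28a1, and the widest is that of Col9a3 (95% CI -1.30 to 0.92).

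Laminin genes were dominated by beta 1, gamma 1 and beta 2, with alpha 4 and alpha 1 as the leading alpha chains. Lamc1, the gamma chain of most laminins, measured 37.6, 36.99 and 35.8 FPKM in the TG libraries and 34.4, 38.4 and 37.1 FPKM in the WT libraries. It had the smallest spread of all 49 genes, with a coefficient of variation of 4.2%, and its log2 fold change was -0.002 (95% CI -0.18 to 0.18). Lamb1 measured 48.01, 39.5 and 41.2 FPKM in the TG libraries and 42.97, 38.4 and 39.4 FPKM in the WT libraries, and Lamb2, the beta chain of many vessel, muscle and nerve laminins, measured 30.3, 29.9 and 29.2 FPKM in the TG libraries and 28.1, 28.2 and 35.02 FPKM in the WT libraries. The genotypes overlapped for both, and their log2 fold changes were 0.08 (95% CI -0.12 to 0.29) for Lamb1 and -0.04 (95% CI -0.26 to 0.18) for Lamb2.

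Of the alpha chains, which set where a laminin binds cells, Lama4 is typical of endothelial and mesenchymal basement membranes and measured 23.4, 19.3 and 21.7 FPKM in the TG libraries and 21.1, 22.2 and 20.6 FPKM in the WT libraries. Lama1, known from the basement membranes of embryos, measured 16.1, 15.9 and 14.96 FPKM in the TG libraries and 14.3, 11.9 and 16.2 FPKM in the WT libraries. Lama1 was lowest in WT replicate 2, while the 5 other libraries lay between 14.3 and 16.2 FPKM. Log2 fold changes were 0.002 (95% CI -0.19 to 0.20) for Lama4 and 0.14 (95% CI -0.11 to 0.39) for Lama1. Lama2, the alpha chain of muscle laminin, ranged over 4.11 to 7.38 FPKM, Lama5 over 2.7 to 4.12 FPKM and Lama3 over 1.21 to 1.55 FPKM. None of the 5 alpha chains passed the test, and the 95% intervals of all 5 lay within 1.5-fold.

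Lamc3, a gamma chain that was among the 12 members with the smallest p, measured 7.51, 6.62 and 7.46 FPKM in the TG libraries and 7.13, 6.0 and 6.04 FPKM in the WT libraries, with overlapping groups and a log2 fold change of 0.16 (95% CI -0.06 to 0.38).

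Ratios between chains that assemble together, and of Lamb2 over Lamb1, which are alternative beta chains, were compared within each library. A factor common to both chains of a ratio then cancels. Of 14 ratios of FPKM, 13 had overlapping genotypes. Col4a1 over Col4a2 was 1.915, 1.924 and 1.933 in TG and 1.825, 1.814 and 1.77 in WT. Every TG value was above every WT value, with means of 1.924 ± 0.009 and 1.803 ± 0.029 (SD, n = 3), a 1.067-fold difference. The exact two-sided permutation p was 0.1, the smallest that 3 against 3 allow, and 1.0 after Benjamini-Hochberg adjustment over the 14 ratios. The log2 difference was 0.094, and it stayed between 0.08 and 0.103 when any 1 library or the pair of TG replicate 2 and WT replicate 3 was dropped, and with counts in place of FPKM. The 2 genes share bases at their starts, both had whole-number counts in all 6 libraries, and the part of reads from the shared bases in the ratio was not tested.

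The other ratios described the proportions of chains in the ovary and did not separate the genotypes. Col1a1 over Col1a2 was 0.62 to 0.8, although type I collagen contains more alpha 1 than alpha 2 chains, and Col5a1 over Col5a2 was 1.241 to 1.462. Col6a1 exceeded Col6a2 at a ratio of 1.941 to 2.348, and Col6a3 over Col6a1 was 0.074 to 0.101. Col4a5 over Col4a6 was 4.42 to 6.03, and Col4a3 over Col4a4 was 0.266 to 0.314, so Col4a5 exceeded Col4a6 and Col4a4 exceeded Col4a3 in all 6 libraries. The ratio of Col8a1 to Col8a2 varied most, from 0.444 in WT replicate 3 to 1.387 in WT replicate 2, with 1.21 in TG replicate 2.

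Among laminins, Lamb1 over Lamc1 was 0.999 to 1.276. Lamb2, at a mean of 30.1 FPKM beside 36.7 FPKM for Lamc1, is not part of this ratio. RNA ratios do not give the numbers of assembled chains. Against Lamc1, the alpha chains stood in the order Lama4 (0.521 to 0.623), Lama1 (0.309 to 0.437), Lama2 (0.111 to 0.196) and Lama5 (0.074 to 0.112), and the ranges of the first 3 did not overlap. Lama1 over Lamc1 was 0.428, 0.43 and 0.418 in TG and 0.416, 0.309 and 0.437 in WT. Only WT replicate 2 was apart. The exact permutation p of that ratio was 0.6, and Lamb2 over Lamb1, at 0.631 to 0.89, had a p of 0.5 in the same exact test.

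**Figure D3:**
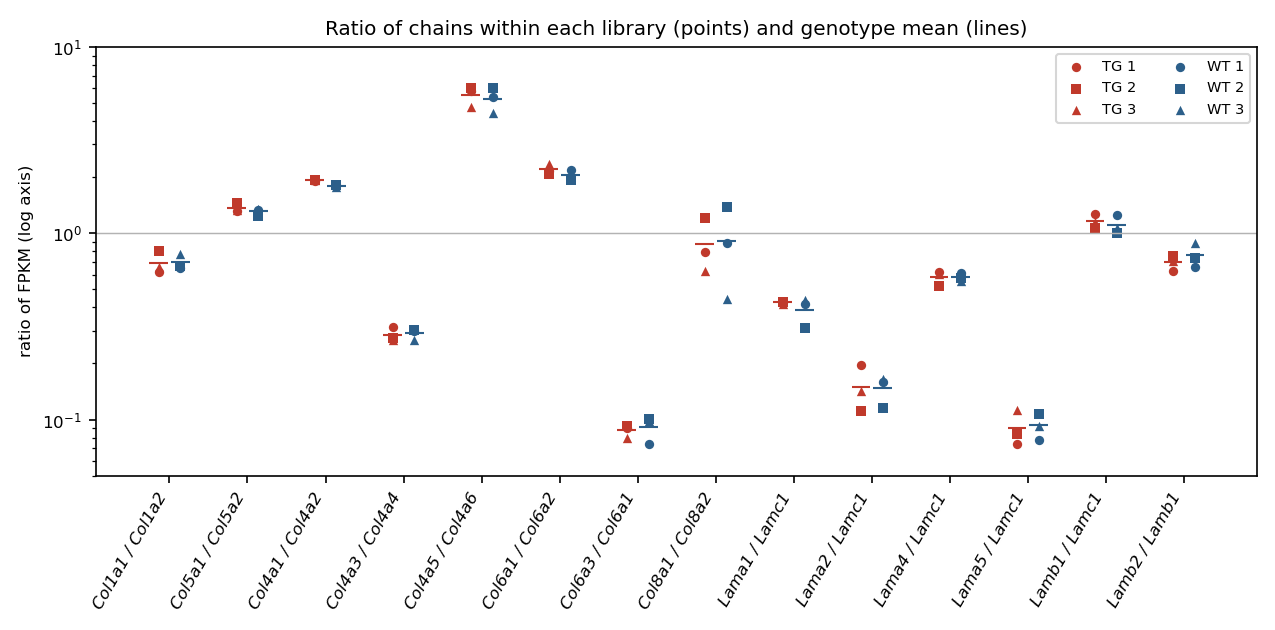
Ratio of the FPKM of 2 chains within a library (y axis, log scale) for the 14 pairs on the x axis, with 1 point per library and a line at each genotype mean. Only the points of Col4a1 over Col4a2 separate by genotype, at 1.915 to 1.933 in TG and 1.77 to 1.825 in WT, while Col8a1 over Col8a2 has the widest spread.

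The members varied more between libraries than most genes did, and did so in an order that ran across the genotypes. With a single library per animal, differences between animals and in the handling of their samples cannot be told apart. The 31 genes with a mean of at least 10 CPM had a median coefficient of variation over the 6 libraries of 15.2%, and the 10289 genes at that level had 8.48%. TG replicate 2 and WT replicate 2 were the lowest 2 libraries for 13 of 49 genes (26.53%), compared with 11.2% of all tested genes. These were Col3a1, Col5a2, Col4a3, Col4a4, Col4a5, Col4a6, Col6a1, Col6a2, Col6a4, Col8a2, Col16a1, Col26a1 and Lama2. TG replicate 1 and WT replicate 3 were the highest 2 for 13 of 49 genes, compared with 6.08% of all tested genes. WT replicate 2 was the lowest library for 24 of 49, compared with 19.5%, and TG replicate 1 the highest for 16 of 49, compared with 16.1%. This order was noticed after the values were seen, the genes are not independent of each other, and the count of 13 was 13 to 15 under other scalings, among them FPKM, which was added after seeing the data.

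The size of the shift was small beside the span of levels. The median log2 deviation of the 49 genes from their mean over all libraries was 0.099, -0.037 and -0.008 in TG replicates 1 to 3, and 0.017, -0.2 and 0.135 in WT replicates 1 to 3. The libraries at both ends, WT replicates 2 and 3, are of one genotype. In WT replicate 2, 34 of 49 genes lay below their mean, among them Col6a1, Col6a2, Col27a1 and Lama1, while Col4a1, Col4a2, Col18a1, Lama4 and Lamc1 lay above it.

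**Figure D4:**
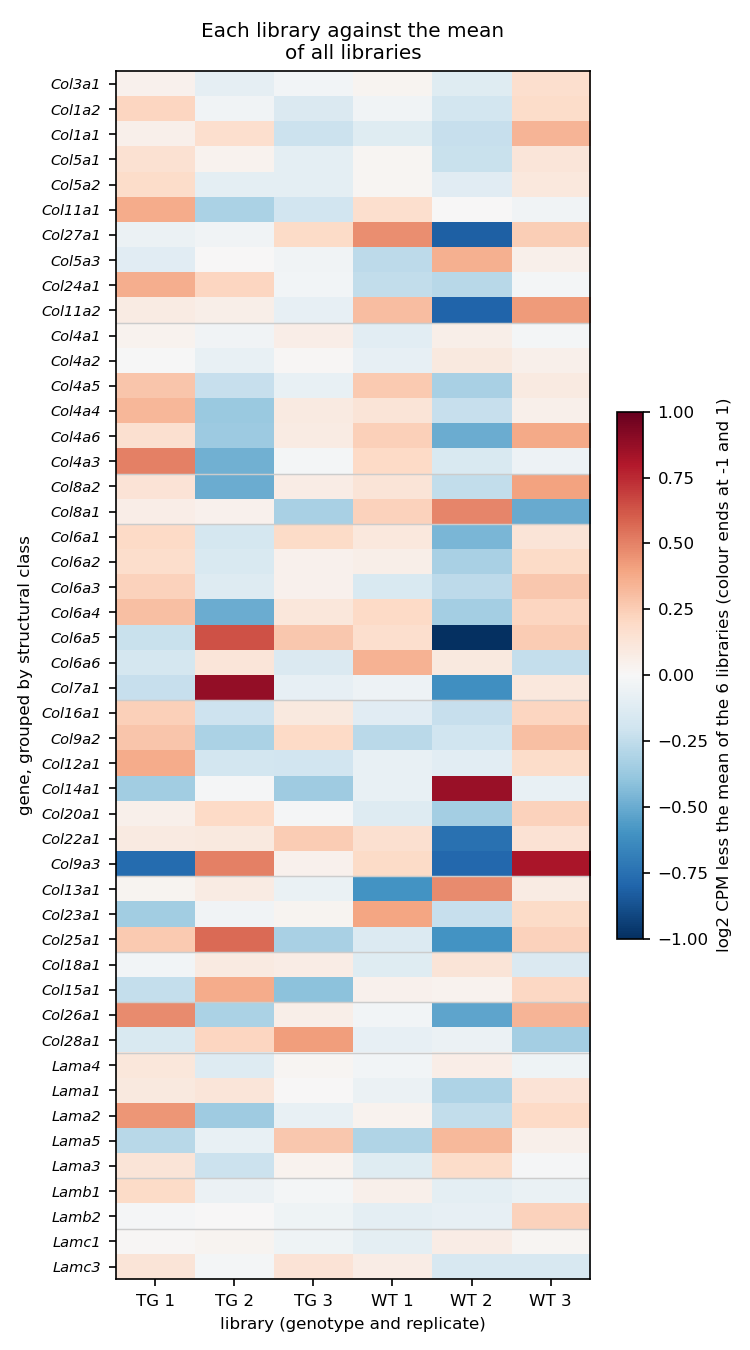
Log2 CPM of 48 of the 49 collagen and laminin genes (y axis, grouped by class) in each library (x axis) less the gene's mean over the 6 libraries, in colour from blue (lower) to red (higher). The WT replicate 2 column is mostly blue, and the WT replicate 3 and TG replicate 1 columns are mostly red, where the medians over the 49 genes are -0.2, 0.135 and 0.099.

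Summed markers of cell types differed between the libraries as well. The 12 smooth muscle markers, which include the contractile genes Acta2 and Myh11, summed to 2191, 1842 and 1848 CPM in TG and 1741, 1827 and 2731 CPM in WT. The 2 highest libraries were WT replicate 3 and TG replicate 1, which were also highest for 13 of the collagens and laminins. The same 2 libraries were highest for the granulosa markers, at 6304 CPM in TG replicate 1 and 6380 CPM in WT replicate 3. Most of that sum was Inha, at 4464 and 4533 CPM. Amh, Inhba and Cyp19a1 were also highest in these 2 libraries, whereas Foxl2, Fshr, Nr5a2 and Fst were not. The oocyte markers were lowest in WT replicate 2 (112 CPM) and highest in WT replicate 3 (222 CPM). The theca markers, mostly Cyp11a1 and Hsd3b1, summed to 26530, 27170 and 28790 CPM in TG and 26220, 28250 and 25370 CPM in WT. That sum was lowest in WT replicate 3. Cyp17a1 measured 591.6, 700.1 and 468.4 CPM in TG and 361.5, 291.3 and 405.7 CPM in WT, all TG values above the WT values. In the other theca markers the genotypes overlapped, and Insl3 was highest in WT replicate 3 at 11.18 CPM. Of the 6 theca markers edgeR called 0, and 2 had an unadjusted p under 0.05, against 4.08% of all tested genes. The 12 endothelial markers summed to 1094, 895 and 1180 CPM in TG and 1130, 1367 and 1061 CPM in WT, highest in WT replicate 2 and lowest in TG replicate 2. The 10 surface epithelium markers summed to 158, 92.4 and 155 CPM in TG and 183, 181 and 83.8 CPM in WT, lowest in TG replicate 2 and WT replicate 3, the 2 libraries that stood apart above. No marker of these lists was at 0 in every library. Their part in the levels of the collagens and laminins was not tested.

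No gene that processes collagen passed the test. Of 36 genes for hydroxylases, chaperones, exporters, propeptide proteases and crosslinking oxidases, 35 were in the table and 34 were tested, and edgeR called 0 of them, against 1.05% of all tested genes. An unadjusted p below 0.05 was reached by 0, against 4.08%. The other count tools, DESeq2 and limma-voom, gave 0 calls too. The list's median log2 fold change was -0.002. The 3 smallest p belonged to Adamts3, a procollagen N-propeptidase, at 0.56 (95% CI -0.02 to 1.14), Colgalt1, which adds galactose to collagen hydroxylysine, at -0.15 (95% CI -0.33 to 0.04), and P4ha3, a prolyl hydroxylase subunit, at -0.51 (95% CI -1.20 to 0.18).

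Among 25 non-collagen matrix genes that associate with these chains, such as nidogens, perlecan, fibronectin and small proteoglycans, edgeR called 1 lower in TG (1.02% of all tested genes were called lower) and 0 higher (0.0354%). It was Agrn, which encodes agrin, a heparan sulphate proteoglycan that binds laminin. Agrn measured 68.7, 55.8 and 71.8 CPM in the TG libraries and 129, 111 and 127 CPM in the WT libraries. All 3 TG libraries lay below all 3 WT libraries, and the log2 fold change was -0.90 (SE 0.11, adjusted p = 0.00233 in edgeR). Agrn passed in each of the 17 alternative analyses, with an adjusted p of at most 0.0192. Its gene (chr4:156165290-156197533, GRCm38.p6) lies 1890 bases from Isg15, an interferon-induced gene that was lower in TG by a log2 fold change of -3.63. The part of reads running from one gene into the other was not tested. Tinagl1 and Hmcn1, with the next smallest p, had -0.39 (95% CI -0.80 to 0.02) and 0.44 (95% CI -0.05 to 0.93), and the median of the list was -0.004.

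Of 17 tested receptors for collagen or laminin, edgeR called 1 lower in TG and 0 higher, where 1.02% and 0.0354% of all tested genes were called. Lair1, an inhibitory collagen receptor of immune cells, measured 2.83, 2.93 and 2.33 CPM in the TG libraries and 5.87, 5.03 and 5.696 CPM in the WT libraries. The groups did not overlap, and the log2 fold change was -1.03 (SE 0.19, adjusted p = 0.0385 in edgeR). This call was lost when any single library other than WT replicate 2 was dropped (adjusted p 0.107 to 0.228), when TG replicate 2 was dropped together with WT replicate 3 (0.242), and with limma-trend on log2 of FPKM plus 1 (0.0867) or plus 0.1 (0.0907). With single libraries dropped the log2 fold change stayed between -1.10 and -0.94. Dag1, the dystroglycan that binds laminin alpha chains, measured 594, 608 and 520.4 CPM in the TG libraries and 602, 645 and 659 CPM in the WT libraries and had a log2 fold change of -0.15 (95% CI -0.35 to 0.06). The integrin subunit Itga3 had -0.14 (95% CI -0.37 to 0.09), and the median of the list was 0.007.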

How the data were processed

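RNA from 6 ovary samples (3 TG, 3 WT) was sequenced on a BGISEQ-500, per the labels' protocols. Genome build mm10 and the tools Bowtie2, RSEM 1.3.1 and DESeq2 1.4.5 are listed without roles, per the submitters' processing notes. The table deposited by the authors holds estimated counts per gene, per the file headers, and 8.50% to 9.12% of the values per library are not whole. The second set of deposited values was read as FPKM from the values, since count divided by value gave 94.2% to 94.5% of the annotated length over 226 single-transcript genes.

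Counts were rounded and tested across the whole table in edgeR 4.0.16 (R 4.3.3) with TMM factors, filterByExpr (minimum count 10, total 15), a quasi-likelihood fit with genotype only and Benjamini-Hochberg adjustment over 14124 genes, threshold 0.05. The fit was tested on simulated data. Intervals come from the same model and include the spread between animals. CPM use TMM library sizes, except summed marker levels, which use library totals. Other collagen and laminin levels are FPKM as deposited. The alternatives were RLE, upper-quartile and no factors, no filter or at least 50 counts in 3 libraries, a replicate block, leaving out libraries, DESeq2 1.42.0, and limma 3.58.1 as voom or as trend on log2 of FPKM plus 1 or 0.1.

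The members and lists were chosen with earlier results of these data known. Genes named are the 12 members with the smallest p, up to 3 of highest FPKM per class, the chains of the ratios and 3 per matrix list with the smallest p. Others, among them Col11a1, Col27a1, Col6a4, Col6a6, Col20a1, Col9a3, Lama3, Isg15 and the genes of the library order, were chosen after their values were seen. Genes in the reference numbered 18165 of 18280, all 49 members among them. No protein sequence is shown, and 1 member is not reported here.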

Additional observations from a re-analysis of the deposited data

How the results depend on the processing

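No collagen or laminin gene was called in any of the 17 alternative analyses. The lowest adjusted p of a member was 0.223 (Col15a1 without TG replicate 2), and 39 to 49 members were tested. Counts at an unadjusted p under 0.05 ranged from 0 to 5 and the member median from -0.042 to 0.129, both highest with TG replicate 2 and WT replicate 3 left out, where 20 intervals lay within 1.5-fold. Of the 49 genes, 16 kept their sign in all analyses and 33 changed it, all with an absolute log2 fold change of at most 0.237. The median over all genes stayed between -0.004 and 0.015.

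Genes called higher in TG numbered 5 in edgeR and 11 in DESeq2, and 119 to 202 genes in all were called. The count of called receptors, 1 (Lair1), was 0 with the replicate block, with both limma-trend scales and without TG replicate 2 and WT replicate 3, and 0 to 1 when single libraries were left out. Chain ratios without overlap numbered 1 in the full data, 3 without TG replicate 2 and WT replicate 3, and 1 to 4 when single libraries were left out, where fewer values make separation easier (4 without WT replicate 1, 2 without WT replicate 3). Without TG replicate 2 and WT replicate 3 the log2 difference of Col8a1 over Col8a2 was -0.656 instead of 0.045. The cause of these changes was not tested further.

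With the replicate number as a block 159 genes were called instead of 149, and Lair1 had an adjusted p of 0.0884. Same-numbered libraries correlated at 0.228, 0.0797 and 0.0935 in their deviations from the group means, and each library correlated best with its own number, but the labels give the number no meaning.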

Other observations

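Dividing count by FPKM gives the transcript length the authors' estimate used in each library. Of 27 members with at least 200 reads in every library, 4 varied by over 5% between libraries. Col16a1 varied most, from 4098 in TG replicate 2 to 4913 in WT replicate 2, a ratio of 1.199, so its library order differs between CPM and FPKM (63.5 CPM and 12.8 FPKM in WT replicate 2, 64.6 CPM and 15.6 FPKM in TG replicate 2). The other 3 were Col12a1, Col4a4 and Col27a1, with ratios of 1.062, 1.057 and 1.051.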
